A study of Isoetes sinensis with 3 samples.

Results

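The longest stretches without an annotated gene on the 22 pseudochromosomes of *Isoetes sinensis* were examined. A gap was the distance between the farthest end reached by any gene so far and the start of the next gene, and gaps of at least 200 kb were taken. There were 391 such gaps among 53568 gaps of any length, or 0.730%. They were chosen by length alone, so their lengths are given as a description with no test.

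*I. sinensis* is a tetraploid aquatic quillwort, a spore-bearing lycophyte. The study sequenced RNA from its tissues to help annotate an assembled genome. The labels give 1 library each for root, shoot and sporophyte, where the methods name sporangia for the third tissue. The annotation carries no value per tissue, so no tissues were compared and there are no replicate libraries.

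In plant genomes the space between genes is largely filled by transposable elements, by satellite repeats around centromeres and at chromosome ends, and by the remains of both. A gap in an annotation says only that no protein-coding gene model was placed there. In a tetraploid, most stretches of the genome exist in corresponding copies on related chromosomes, and their gene order can be compared. The gene models carry identifiers but no gene names or functions, so the genes at the gaps are described by their structure. Repeat content and unresolved bases were not analysed here, and a gap of sequence and a gap of genes cannot be told apart.

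Together the gaps covered 119.8 Mb, which was 6.28% of the 1908.6 Mb from the first to the last gene of each chromosome and 6.87% of the intergenic length. Their median was 263 kb, with quartiles of 228 and 329 kb, against a median of 21.5 kb for all gaps. The numbers fell off with length. There were 168 under 250 kb, 132 of at least 300 kb, 56 of at least 400 kb, 27 of at least 500 kb and 2 of more than 1 Mb. The threshold fell within a continuous range of lengths. Just inside it lay gaps of 200359 bp on chromosome 22 (between evm.TU.Chr22.2837 and evm.TU.Chr22.2841), 200540 bp on chromosome 7 (evm.TU.Chr7.3833 and evm.TU.Chr7.3839) and 200551 bp on chromosome 22 (evm.TU.Chr22.2111 and evm.TU.Chr22.2114). Just outside it lay gaps of 199851 bp on chromosome 22 (evm.TU.Chr22.1223 and evm.TU.Chr22.1227), 199528 bp on chromosome 17 (evm.TU.Chr17.2258 and evm.TU.Chr17.2265) and 199347 bp on chromosome 1 (evm.TU.Chr1.3509 and evm.TU.Chr1.3510).

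The longest gap measured 1219.7 kb and lay on chromosome 1 (49076859 to 50296577 on the study's own assembly), between evm.TU.Chr1.2626 and evm.TU.Chr1.2635. The second, of 1182.5 kb, lay on chromosome 18 (39135087 to 40317536), between evm.TU.Chr18.2132 and evm.TU.Chr18.2145. The third, of 947 kb, lay near the end of chromosome 6 (100328517 to 101275621), between evm.TU.Chr6.5254 and evm.TU.Chr6.5256. These were followed by 889 kb on chromosome 1 (46334278 to 47222893), 814 kb on chromosome 2 (42382066 to 43195932) and 809 kb on chromosome 6 (17595257 to 18404057). The remaining 4 of the 10 longest were 787 kb on chromosome 3 (60299108 to 61086203), 767 kb on chromosome 17 (45792830 to 46560134), 737 kb on chromosome 18 (40357691 to 41094443) and 736 kb on chromosome 12 (54627350 to 55363575). Chromosomes 1, 6 and 18 each held a pair of these 10.

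Many genes at the edges of these 10 gaps were small models. At the longest gap, evm.TU.Chr1.2626 had a coding sequence (CDS) of 486 bp and evm.TU.Chr1.2635 one of 420 bp, each in 3 CDS exons and with no untranslated region (UTR). At the 767-kb gap, evm.TU.Chr17.2415 was a single-exon model of 177 bp and evm.TU.Chr17.2422 had a CDS of 150 bp. The exceptions included evm.TU.Chr3.3250, on the right of the 787-kb gap, with a CDS of 4047 bp in 1 CDS exon. On the other side of that gap, evm.TU.Chr3.3244 had 6 CDS exons and 648 bp.

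All 22 chromosomes had gaps of this length. The mean was 17.8 per chromosome (SD 7.32, n = 22), and 5.45 Mb per chromosome (SD 2.35). Chromosomes 22 and 13 stood highest, with 38 and 33 gaps that took 10.5% and 10.2% of their length. Chromosomes 4 and 12 had the fewest, 10 each, and chromosome 5 had the smallest share of its length in gaps, 3.74%. Per 100 Mb the number ran from 13.4 on chromosome 4 to 37.1 on chromosome 13. The high number on chromosome 13 came with a low median length of 242 kb, whereas the median was 306 kb on chromosome 2 and 308 kb on chromosome 15.

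**Figure D1:**
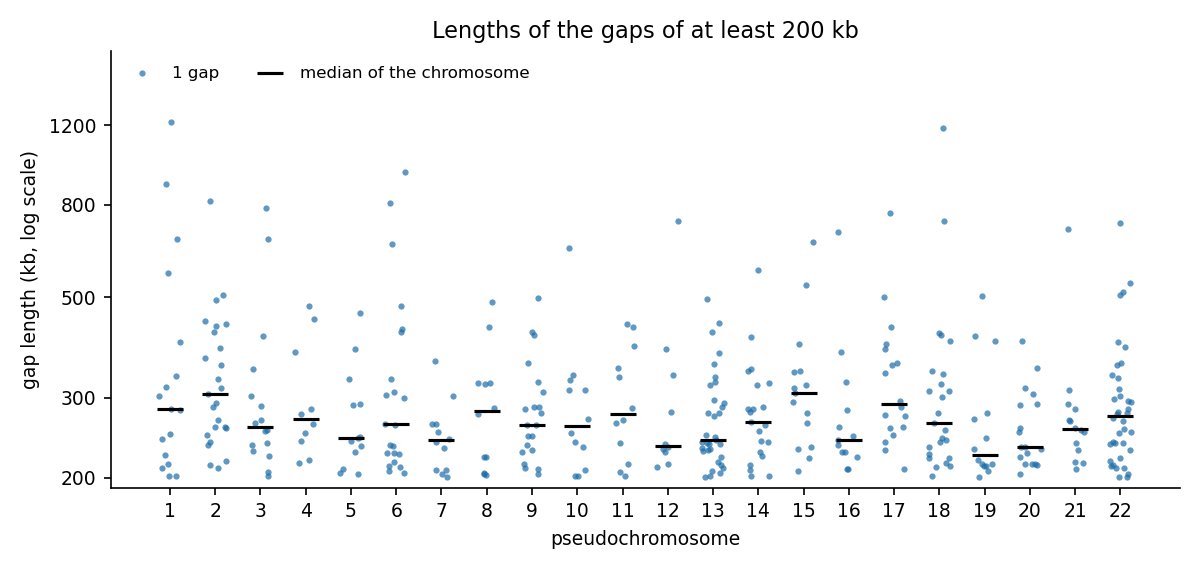
Length of each gap of at least 200 kb (points, log scale in kb) on each of the 22 pseudochromosomes, with the median of the chromosome as a black bar and points spread sideways for visibility. Medians run from 225 kb on chromosome 19 to 308 kb on chromosome 15, and the gaps of more than 1 Mb are the single highest points of chromosomes 1 and 18.

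The longest gap of each remaining chromosome was shorter than those 10. It measured 730 kb on chromosome 22 (between evm.TU.Chr22.5453 and evm.TU.Chr22.5460), 706 kb on chromosome 21 (evm.TU.Chr21.732 and evm.TU.Chr21.735) and 697 kb on chromosome 16 (evm.TU.Chr16.4221 and evm.TU.Chr16.4223). Chromosome 15 reached 662 kb (evm.TU.Chr15.607 and evm.TU.Chr15.609), chromosome 10 reached 643 kb (evm.TU.Chr10.390 and evm.TU.Chr10.397) and chromosome 14 reached 575 kb (evm.TU.Chr14.1615 and evm.TU.Chr14.1617). The values were near 500 kb on chromosome 19 (504 kb, evm.TU.Chr19.1332 and evm.TU.Chr19.1338), chromosome 9 (497 kb, evm.TU.Chr9.1904 and evm.TU.Chr9.1911), chromosome 13 (496 kb, evm.TU.Chr13.3514 and evm.TU.Chr13.3521) and chromosome 8 (488 kb, evm.TU.Chr8.2491 and evm.TU.Chr8.2492). The lowest maxima were on chromosome 4 (479 kb, evm.TU.Chr4.3152 and evm.TU.Chr4.3159), chromosome 5 (462 kb, evm.TU.Chr5.3429 and evm.TU.Chr5.3432), chromosome 11 (436 kb, evm.TU.Chr11.888 and evm.TU.Chr11.892), chromosome 20 (400.2 kb, evm.TU.Chr20.94 and evm.TU.Chr20.101) and chromosome 7 (361 kb, evm.TU.Chr7.1915 and evm.TU.Chr7.1919). One of these genes, evm.TU.Chr15.609, had 17 CDS exons that summed to 2787 bp.

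Neighbouring chromosome numbers, 1 with 2 up to 21 with 22, were compared as 11 pairs of corresponding chromosomes. Where a difference was tested, its value in each of the 11 pairs entered an exact two-sided sign-flip permutation test. The p-values were adjusted by Benjamini-Hochberg over 10 such tests. Of these, 1 is not used because its measure contained gap length, and no conclusion is drawn from that on the longer chromosome. Both stayed in the adjustment, which affects the adjusted values of the rest. The smallest p the sign-flip test can give is 0.000977. The pairs come from 1 assembly and are not biological replicates, so a p-value measures only how evenly a difference held over the genome.

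The chromosome of each pair whose last gene ended later carried 225 gaps and its partner 166. The mean difference was 5.36 gaps (SD 8.59, n = 11 pairs), positive in 8 pairs, negative in 2 and 0 in 1, and did not pass the exact permutation test (adjusted p = 0.104). The call rested on chromosomes 1 and 2, where the shorter chromosome had 8 more gaps. Without that pair the difference was 6.70 (adjusted p = 0.0326 in the exact permutation test), and when single-exon genes were left out before gaps were measured it was 7.18 (adjusted p = 0.0228). A longer chromosome also offers more room for gaps, and the gaps themselves add to the position of its last gene. Gap length thus helped decide which chromosome counted as longer, so no conclusion is drawn from these p-values.

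The gaps were spread along the chromosomes. The central 50% of the chromosomes held 209 gaps, or 21.8 per 100 Mb, and the outer parts 182, or 19.0 per 100 Mb. The mean difference over the pairs was 2.57 per 100 Mb (SD 9.45, n = 11 pairs), positive in 7, with an adjusted p of 0.479 in the exact permutation test. Chromosomes 1 and 2 were the most central, with 29 of 42 gaps in the central part, and chromosomes 3 and 4 the least, with 7 of 26.

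Divided into 10 equal parts from the low to the high coordinates, the chromosomes held 22, 35, 39, 46, 43, 43, 44, 36, 27 and 56 gaps. The last part had the most gaps, 17.6 Mb of them on 18 chromosomes, and the first part the fewest. The last part exceeded the first on 13 chromosomes, fell below it on 4 and equalled it on 5. Chromosome 22 alone gave 11 of the 56, and without it the numbers were 45 and 21. Many gaps of the last part lay close to the end. Of all gaps, 29 ended within 2 Mb of the end of the last gene, on 14 chromosomes, which is 65.9 per 100 Mb, against 9 gaps on 7 chromosomes that started in the first 2 Mb. The orientation of a pseudochromosome has no biological meaning by itself. The stretch before the first gene was not counted as a gap, and it reached 200 kb or more on 9 chromosomes, up to 1230036 bp on chromosome 21. These end positions were noticed in the data and were not tested.

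**Figure D2:**
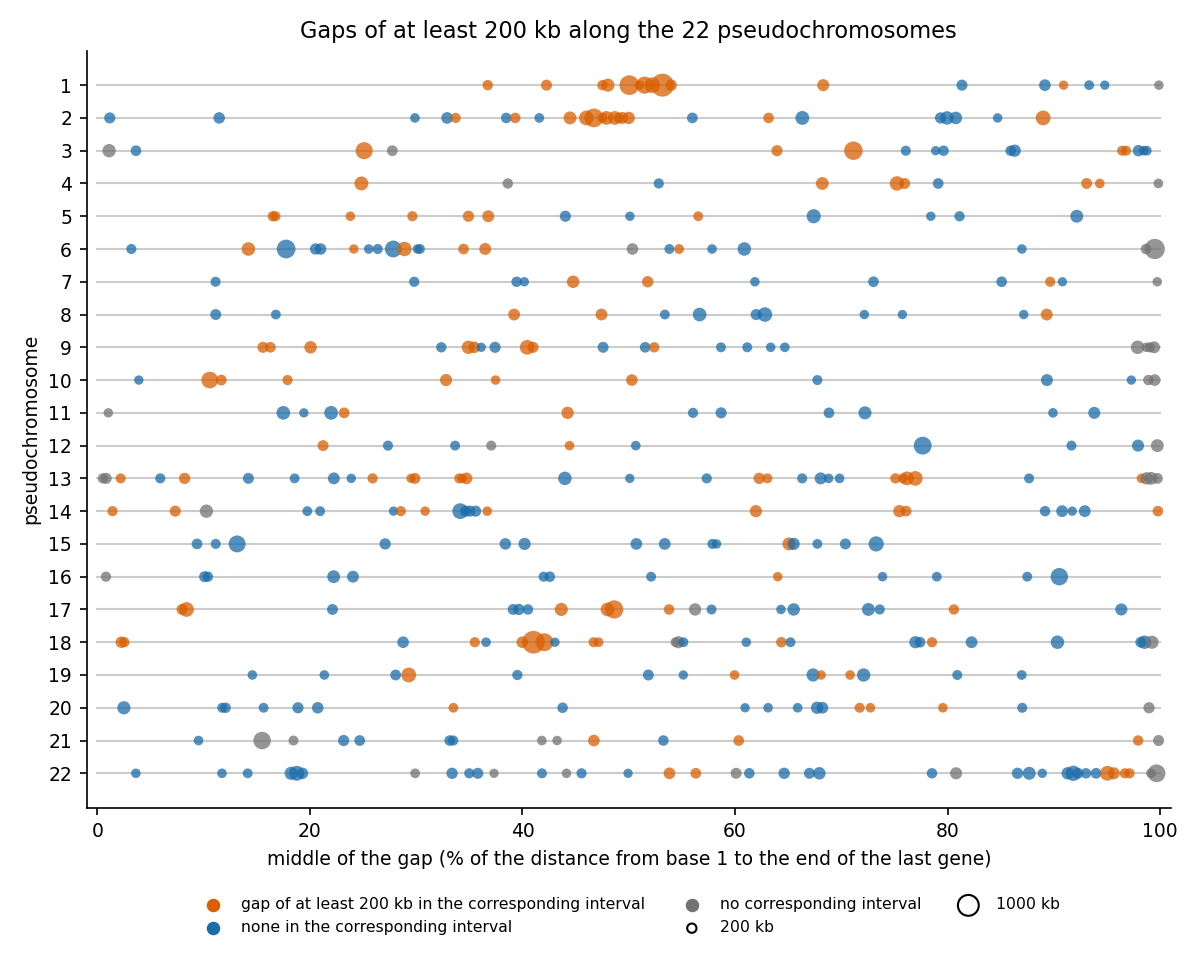
Position of each of the 391 gaps on the 22 pseudochromosomes, as a percentage of the distance from base 1 to the end of the last gene, with the area of a point proportional to gap length. Orange gaps have a gap of at least 200 kb at the corresponding place on the paired chromosome (133), blue gaps do not (216), and grey gaps could not be placed (42), and the crowded points near the centre of chromosomes 1 and 2 are the runs described in the text.

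Many gaps had another nearby. The nearest other gap of at least 200 kb lay at a median distance of 1.09 Mb, 190 gaps (48.6%) had one within 1 Mb, and 138 had one within 500 kb. Joining gaps at most 1 Mb apart gave 72 runs and left 201 single gaps. There were 51 runs of a pair of gaps, and 21 runs of at least 3, which held 88 gaps. Of 369 neighbouring gaps on the same chromosome, 55 were separated by no more than 5 genes. The share with another gap within 1 Mb was 66.7% for the 846 gaps of at least 150 kb. It was 31.8% for the 132 gaps of at least 300 kb, so it moved with gap number. A share expected from gap density was not computed, and clustering beyond density was not tested.

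Among runs of at least 3 gaps, the one with the largest share of its length in gaps lay near the centre of chromosome 1 (46334278 to 50604325). Its 6 gaps took 3.86 Mb of 4.27 Mb, or 90.5%, and 18 genes lay between them. A run of 9 gaps on chromosome 2 (40540013 to 45963506) held 51 genes, with 68.8% of its 5.42 Mb in gaps. Both runs lay near the middle of their chromosomes, from 49.6% to 54.1% of the length on chromosome 1 and from 44.3% to 50.2% on chromosome 2. The third large run, of 9 gaps, lay near the end of chromosome 22 (99359836 to 106000060), where gaps took 45.3% of 6.64 Mb and 86 genes lay between them. On chromosome 18, a run of 4 gaps (38552030 to 41784831) included 2 of the 10 longest and was 75.2% gap. Runs of 4 closed chromosomes 9 and 13, the first from 97.6% to 99.6% of the length and the second from 98.1% to 99.9%.

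In 16 places a single gene separated a pair of gaps. These lone genes had a median CDS of 412.5 bp, 15 had a CDS under 1000 bp, 3 had an annotated UTR, and 4 had a CDS that was not a multiple of 3. Chromosome 1 had evm.TU.Chr1.2626, between gaps of 565 and 1219.7 kb, and evm.TU.Chr1.2635, between 1219.7 and 304 kb. Chromosome 2 had evm.TU.Chr2.2320 (CDS 272 bp), evm.TU.Chr2.2331 (435 bp) and evm.TU.Chr2.2349 (527 bp), all within its run of 9. Chromosome 13 also had 3 of them, evm.TU.Chr13.2, evm.TU.Chr13.3499 and evm.TU.Chr13.4534, and the last was the largest of the 16, with a CDS of 1311 bp in 8 CDS exons. The others were evm.TU.Chr5.915 and evm.TU.Chr14.1617, evm.TU.Chr16.424 and evm.TU.Chr17.436, evm.TU.Chr17.2415 and evm.TU.Chr18.2760, and evm.TU.Chr18.5042 and evm.TU.Chr20.488. The CDS of evm.TU.Chr20.488 was 554 bp and that of evm.TU.Chr13.3499 was 286 bp, and neither is a multiple of 3. The other pair with such a CDS was evm.TU.Chr2.2320 and evm.TU.Chr2.2349.

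The genes bordering the gaps had shorter coding sequences than other genes. The 391 gaps had 766 border genes, since the lone genes border a gap on each side. Their mean CDS was 954 bp, against 1103 bp in the 53297 other genes of the pseudochromosomes. The difference was −133 bp on average over the pairs (SD 79.4, n = 11 pairs), negative in 11 of 11, with an adjusted p of 0.00488 in the exact permutation test. Chromosomes 13 and 14 had the largest deficit, −293 bp, and chromosomes 15 and 16 the smallest, −27.7 bp. A CDS under 300 bp was found in 10.3% of border genes and 5.30% of the others.

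Border genes also had fewer CDS exons, 4.02 on average against 4.64. The mean difference was −0.569 (SD 0.394, n = 11 pairs), negative in 10 of 11, with an adjusted p of 0.00732 in the exact permutation test. Chromosomes 15 and 16 were the exception, with 0.316 more. On medians in place of means the difference was −0.318 and did not pass the exact permutation test (adjusted p = 0.208). A low mean was not confined to long gaps. Genes at the edges of gaps under 10000 bp averaged 4.10 CDS exons. The mean was 4.91 at 10000 to 50000 bp, 4.93 at 50000 to 100000 bp and 4.61 at 100000 to 150000 bp. It was 4.58 at 150000 to 200000 bp, 4.06 at 200000 to 300000 bp and 3.85 at 300000 bp or more. The share of single-exon genes was 20.2% among border genes and 19.9% among others. It differed by −0.608 percentage points (SD 4.99, n = 11 pairs, adjusted p = 0.702 in the exact permutation test).

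An annotated UTR was present in 353 of 766 border genes, or 46.1%, and in 53.2% of the others. The difference was −6.79 percentage points (SD 6.90, n = 11 pairs), negative in 9 of 11, with an adjusted p of 0.0215 in the exact permutation test. It was lost when only genes with a CDS of at least 150 bp that was a multiple of 3 were kept (−4.14, adjusted p = 0.137 in the exact permutation test) and when the runs of at least 6 gaps were left out (−5.34, adjusted p = 0.0938), the second an alternative chosen after seeing the data. The median of the longest intron was 413 bp in border genes and 441 bp in others, and the mean difference in log10 length was −0.0200 (SD 0.0496, n = 11 pairs, adjusted p = 0.333 in the exact permutation test).

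Border genes also differed from other genes in how often CDS length was a multiple of 3. Only this length was examined, and the reading frame itself was not. A complete coding sequence is read in codons of 3 bases, and its length is then a multiple of 3. Among border genes 58 of 766, or 7.57%, had a CDS that was not, against a background of 1.48% of all genes on the pseudochromosomes. The share was 12.0% (31 of 259) at gaps of at least 300 kb and 5.33% (27 of 507) at the other gaps. It was higher in border genes than in other genes on 11 of 11 chromosome pairs, by 6.05 percentage points on average (SD 2.55, n = 11 pairs). The smallest difference was 0.545 points on chromosomes 15 and 16. This property was chosen after its values were seen, so no test of it is given.

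Such a gene stood on at least 1 side of 58 gaps and on both sides of 4. The median CDS of the 58 genes was 361 bp, 43 of them were under 500 bp, and 2 had a UTR. Small size went with such a CDS length elsewhere too, since the median was 373 bp for such genes away from the gaps. A total of 56 of the 58 carry a source entry for Evidence Modeler, where 52.9% of all border genes and 44.2% of other genes do. The 2 without it were the 2 with a UTR, so for these genes the entry is not a separate observation. By the methods, the whole gene set was made with Evidence Modeler, whatever the entry.

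Away from the gap the values moved unevenly towards those of distant genes. The second gene from a gap had a CDS that was not a multiple of 3 in 3.21% of cases and the third in 1.04%. The share was then 1.69% to 2.35% at the fourth to ninth genes and 0.348% at the tenth, against 1.33% of genes more than 10 away. Mean CDS length rose from 954 bp in the first gene to 1019 bp in the second, 1026 bp in the third and 1075 bp in the fourth, was 1014 bp in the seventh, and stood at 1107 bp in the distant genes. The UTR share was 46.5% in the second gene, 51.1% in the fifth and 48.2% in the tenth, against 53.7% far from gaps.

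**Figure D3:**
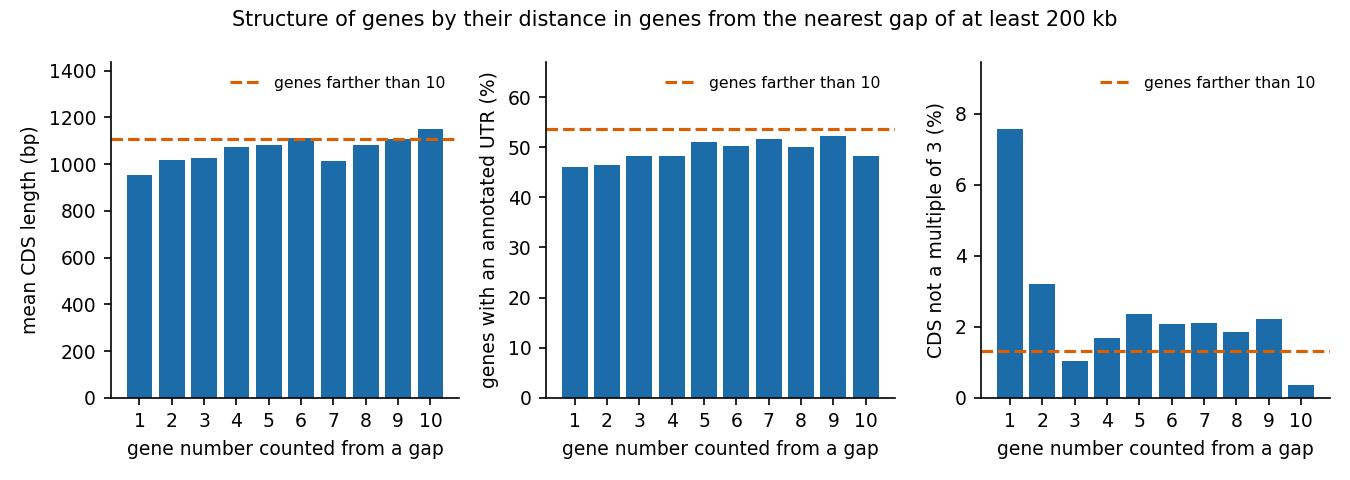
Mean CDS length in bp, percentage of genes with an annotated UTR, and percentage of genes whose CDS is not a multiple of 3, by the place of a gene counted from the nearest gap of at least 200 kb (1 is the border gene). Bars are all genes of that place (575 to 766 genes) and the dashed line is the 47624 genes more than 10 places away. The bar for a CDS that is not a multiple of 3 falls from 7.57% at place 1 to 1.04% at place 3. It lies between 1.69% and 2.35% at places 4 to 9.

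The directions of the border genes were also recorded. The genes on the 2 sides of a gap lay on the same strand at 204 gaps, or 52.2%, as at 52.2% of shorter gaps. They pointed towards each other, with their 3′ ends facing the gap, at 83 gaps, or 21.2%, against 23.8% of shorter gaps. They pointed away from each other, with their 5′ ends facing it, at 104 gaps, or 26.6%, against 23.9%. Most shorter gaps measured under 50 kb. By length class this last share was 28.0%, 29.1% and 28.4% in the classes from 50 to 200 kb, 29.0% at 200 to 300 kb and 21.97% at 300 kb or more. Over the pairs the same-strand share differed by −1.41 percentage points (SD 8.02, n = 11 pairs, adjusted p = 0.630 in the exact permutation test).

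Gene identifiers carry serial numbers that run along each chromosome with some numbers absent, and the absent numbers between the genes at the edges of a gap were counted. The gaps contained 1648 of the 46607 absent numbers. A gap skipped 4 numbers at the median, with quartiles of 2 and 6 and a maximum of 19, and 40 gaps skipped none. The longest gap skipped 8, the 1182.5-kb gap 12, the 809-kb gap between evm.TU.Chr6.919 and evm.TU.Chr6.933 skipped 13, and the 947-kb gap of chromosome 6 skipped 1. What the absent numbers stood for is not given in the sources used here.

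Longer gaps skipped more numbers each, but the count levelled off. Its median was 0 in the classes under 50 kb, 2 at 50 to 100 kb, 3 in both classes from 100 to 200 kb, and 4 both at 200 to 300 kb and at 300 kb or more. Within the 391 gaps it barely followed length (Spearman's rho 0.0548 across gaps, which are not independent replicates). Divided by length, the value was 1.38 per 100 kb of gap, against 2.58 in the 10827 gaps of 50 to under 200 kb. Length chose the gaps and also stands in the denominator, so a count that levels off gives a lower value per 100 kb in longer gaps by construction. The value per 100 kb is therefore a description, with no test.

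To find whether gaps lay at corresponding places on paired chromosomes, genes with a shared exon structure served as landmarks. A landmark was a pair of genes on paired chromosomes, each with at least 5 CDS exons, that had the same ordered lengths of internal CDS exons and shared them with no other gene. There were 3881 such pairs. The corresponding interval of a gap ran between the partners of the nearest landmark on each side. It could be drawn for 349 of the 391 gaps. Another 22 had no landmark on a side and 20 had an interval of more than 5 Mb. Gaps near chromosome ends were often among these, as 9 of the 29 gaps within 2 Mb of the last gene's end could be placed.

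A gap of at least 200 kb was present in the corresponding interval of 133 of the 349 placed gaps, or 38.1%. The background over gaps of any length was 10.1%. For gaps of 50 to under 200 kb it was 12.0% (1231 of 10251). The difference between long gaps and these was 24.4 percentage points (SD 17.1, n = 11 pairs), positive in 10 of 11, with an adjusted p of 0.00651 in the exact permutation test. The share rose with length, from 10.8% at 50 to 100 kb, 14.6% at 100 to 150 kb and 23.6% at 150 to 200 kb to 33.0% at 200 to 300 kb and 48.3% at 300 kb or more. The corresponding intervals were also longer for the long gaps, with medians of 659 kb at 200 to 300 kb and 776 kb at 300 kb or more, against 394 kb at 50 to 100 kb, and a longer interval can hold more. An alternative allowed no more than 10 genes between the landmarks on the gap's own chromosome. The shares were then 28.1% and 35.7% in the 2 longest classes and 4.16% at 50 to 100 kb. The difference over the pairs was 24.7 points (adjusted p = 0.00651 in the exact permutation test). That limit was chosen after seeing the data, and it did not restrict the corresponding interval. Interval lengths were matched in neither comparison, so these p-values do not separate correspondence from interval length.

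Counted by interval, so that gaps sharing landmarks count once, 98 of 292 intervals with a gap had one on the paired chromosome as well, or 33.6%. Of the 7329 intervals without a gap, 230 had one there, or 3.14%. An interval with a gap is at least 200 kb long, while one without can be shorter. Interval lengths were not matched in this count, so part of the contrast is fixed by length and no test is given.

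**Figure D4:**
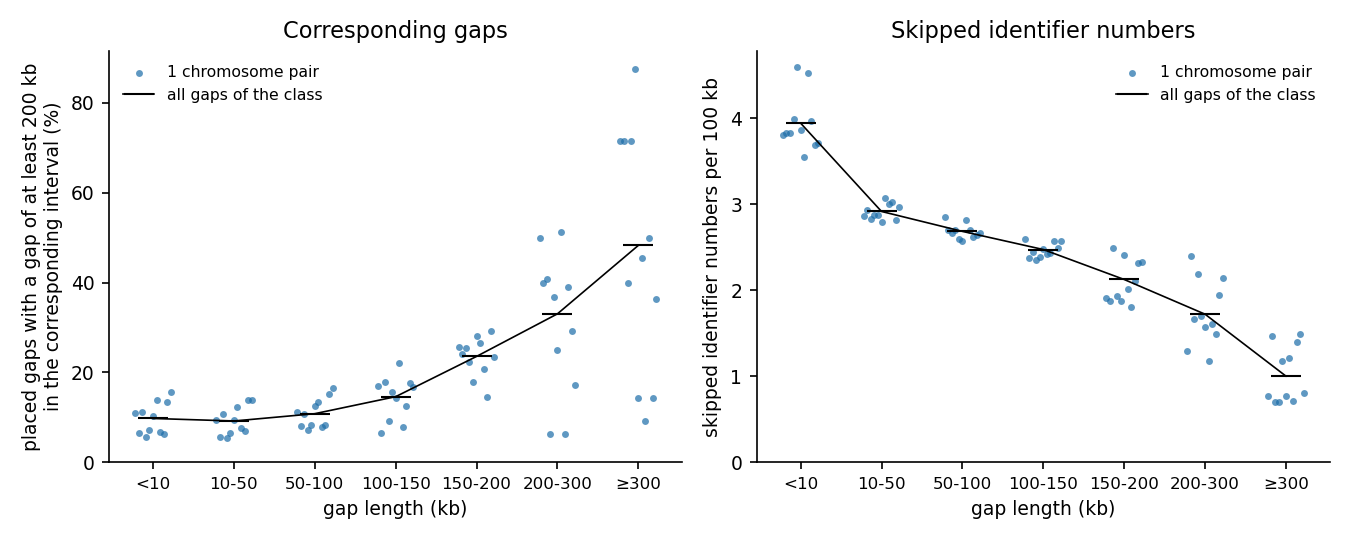
Left, percentage of placed gaps whose corresponding interval holds a gap of at least 200 kb, and right, absent identifier numbers per 100 kb of gap, by gap length class in kb. Points are the 11 chromosome pairs and black bars all gaps of a class, and the left values rise to 48.3% in the longest class while the right values fall to 1.002, with gap length in their denominator.

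Chromosome pairs differed widely in how many gaps corresponded. The share was 61.0% on chromosomes 1 and 2 (25 of 41), 51.9% on 9 and 10 (14 of 27) and 50% on both 3 and 4 (11 of 22) and 13 and 14 (24 of 48). It was lowest on chromosomes 15 and 16, at 7.41% (2 of 27), where gaps of 50 to under 200 kb had 8.26%. The longest gaps of these chromosomes, 662 kb at evm.TU.Chr15.607 and 697 kb at evm.TU.Chr16.4221, corresponded to intervals whose longest gaps were 81.0 and 79.0 kb. Chromosome 22, with the most gaps, did not match its partner in number. Its pair had 38 and 14 gaps and a corresponding share of 22.5% (9 of 40).

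On 47 occasions a gap on each of the paired chromosomes was the longest in the other's corresponding interval. The 889-kb gap of chromosome 1, at evm.TU.Chr1.2583 and evm.TU.Chr1.2588, met the 814-kb gap of chromosome 2, at evm.TU.Chr2.2320 and evm.TU.Chr2.2324. The chromosome 2 interval of that match held 7 gaps. The longest gap of all met one of 354 kb on chromosome 2, but its own interval held 5 gaps. Where an interval held several gaps, the landmarks do not settle which gap corresponds to which. The 1182.5-kb gap of chromosome 18 met the 767-kb gap of chromosome 17, with 3 gaps in the chromosome 18 interval and 2 in the other. The 787-kb gap of chromosome 3 met the 479-kb gap of chromosome 4. The genes on their left, evm.TU.Chr3.3244 and evm.TU.Chr4.3152, both had a CDS of 648 bp in 6 CDS exons. That chromosome 4 interval held 2 gaps, and the other measured 283 kb. Its right-hand gene, evm.TU.Chr4.3168, had a CDS of 4047 bp in 1 CDS exon, as had evm.TU.Chr3.3250 at the 787-kb gap. In 6 of the 47 cases a border gene had a counterpart at the other gap with the same CDS length and number of CDS exons. Some of these genes had only 1 CDS exon. The share expected for other genes of paired chromosomes was not computed, so the count cannot be called high or low.

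The lengths of the 47 gap pairs were set beside those of any gaps on paired chromosomes. The longer was 1.24 times the shorter at the median, against 1.27 over all 3509 combinations of a gap on one chromosome with a gap on its partner. The ratio was within 1.5 times in 31 pairs (66.0%, against 70.0% of combinations) and within 1.1 times in 17 (36.2%, against 22.5%). The closest in length were gaps chosen here for that closeness. On chromosome 5 (35145617 to 35475097) and chromosome 6 (36812181 to 37141957) they measured 329481 and 329777 bp, each with 3 absent numbers and tail-to-tail border genes, and on chromosomes 21 and 22 they measured 266886 and 266263 bp.

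The 216 placed gaps without a corresponding gap faced intervals with about as many genes. The interval around them held a median of 13 genes, and the corresponding interval also 13. The interval was 802 kb long on their own chromosome and 480 kb on the other, and it was shorter on the other in 175 of 216 cases. Less the gap itself, the own interval had a median of 503 kb. The longest gap in the corresponding interval was 111 kb at the median. It was at least 150 kb in 54 cases and under 50 kb in 12. The 809-kb gap of chromosome 6 was one of these 12, with a longest gap of 38.0 kb on chromosome 5. These gaps were selected for the lack of a partner, so a shorter partner interval is in part fixed by that choice and was not tested.

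Landmarks at both edges of a gap were rare. Among border genes, 222 had at least 5 CDS exons, and 68 of them (30.6%) were landmarks, against 41.1% of the 18712 other genes with so many exons. Both border genes were landmarks at 4 gaps, and at none of them did the partners border a gap of at least 200 kb. The 430-kb gap of chromosome 8 (42092043 to 42521826), between evm.TU.Chr8.2281 and evm.TU.Chr8.2290, corresponded to 291 kb with 5 genes on chromosome 7. The 380-kb gap of chromosome 16 (18892277 to 19272015), between evm.TU.Chr16.992 and evm.TU.Chr16.994, corresponded to 115 kb with 2 genes on chromosome 15. The 358-kb gap of chromosome 17 (62030880 to 62389004), between evm.TU.Chr17.3178 and evm.TU.Chr17.3189, corresponded to 67.6 kb with 4 genes on chromosome 18. The fourth, of 221 kb on chromosome 18 (53281179 to 53501717), between evm.TU.Chr18.2771 and evm.TU.Chr18.2772, had no gene between the partners either, but these lay 160 kb apart on chromosome 17.

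Genes on unplaced scaffolds were compared with the genes around the gaps. Of the 3240 unplaced genes, 183 had the exon structure of exactly 1 placed gene, at 178 placed genes in all. Of these 178, 1 bordered a gap and 26 (14.6%) lay within 10 genes of one, where 11.9% of all placed genes lie.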

How the data were processed

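The data were 1 annotation of gene, mRNA, exon, CDS and UTR positions in bp, deposited by the authors on their own assembly. By their methods, Hifiasm contigs were joined into pseudochromosomes with Hi-C data, and Augustus, Genscan, GeneWise and PASA models were combined with Evidence Modeler. The submitters' notes also name FastQC, HISAT2 and Cufflinks. Read depth per library was not analysed here, so no counting error can be given. Genes on pseudochromosomes were sorted by start, and gaps of at least 200 kb between the running maximum end and the next start were kept. Differences were tested by exact sign-flip permutation over 11 chromosome pairs (2048 sign flips, Python 3.11.15, NumPy 2.4.6, pandas 2.3.3). Scripts were tested on simulated data.

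The gaps, gene lists and landmark rule were chosen with earlier results of these data known. Genes named were those at the 10 longest gaps, at the longest gap of each chromosome, alone between gaps, at gaps nearest 200 kb, or at gaps with landmarks on both edges. Those at the gaps of closest length, and evm.TU.Chr4.3168, were chosen after seeing values. Alternatives were other gap minimums, gene filters, comparison genes, landmark limits, medians, and leaving out each chromosome pair.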

Additional observations from a re-analysis of the deposited data

How the results depend on the processing

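Of 140 alternative values of the tested differences, 130 kept their direction and their side of the threshold. The 140 include alternatives of 2 measures from which no conclusion is drawn. These are the excess on the longer chromosome and the absent numbers per 100 kb, and the latter kept both in every alternative. Leaving out single-exon genes before measuring gave 599 gaps and 8.07 Mb per chromosome. A minimum of 150 kb gave 846 gaps, 8.96 Mb per chromosome and 66.7% with another gap within 1 Mb, and a minimum of 300 kb gave 132 gaps, 2.62 Mb and 31.8%, where the main share was 48.6%. From the excess of gaps on the longer chromosome no conclusion is drawn, since gap length helps decide which chromosome is longer. It passed the threshold at 7.18 gaps without single-exon genes. When each chromosome pair was left out it ranged from 3.50 to 6.70, and it passed without chromosomes 1 and 2. The CDS exon difference on medians (−0.318) no longer passed. The UTR difference no longer passed without the runs of at least 6 gaps (−5.34). It also failed with only genes whose CDS was at least 150 bp and a multiple of 3 (−4.14). The single-exon share changed sign against genes at gaps of 50 to under 200 kb (0.558) and ranged from −1.42 to 0.154 over the left-out pairs, with 0.132 without chromosomes 15 and 16. The same-strand share changed sign against gaps of 50 to under 200 kb (1.28) and ranged from −2.59 to 0.00865, and neither share passed the test under any of these. Over the left-out pairs the corresponding share ranged from 22.01 to 26.90 percentage points, the CDS length from −144 to −117 bp, the CDS exons from −0.657 to −0.520, the UTR share from −7.87 to −5.50 points, the longest intron from −0.0252 to −0.00933 and the central excess from 1.101 to 4.332 per 100 Mb. The cause of these changes was not tested. No paired analysis was possible because no library has a value here, and the pairs of the sign-flip test are chromosomes and not samples.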
